A study of Homo sapiens with 6 samples.

Results

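The interferon regulatory factors (IRFs) IRF1, IRF2, IRF3, IRF5, IRF7 and IRF9 were examined together with STAT2, the partner of IRF9, in the triple-negative human breast cancer line MDA-MB-231, whose cells are mesenchymal in character. All chip probes whose symbol was one of these 7 were taken, which gave 11 probes among 47322, and 7 of 31424 gene symbols on the chip. The genes were chosen by their measured signals in these same arrays, where IRF7 was lower while interferon response genes were higher, so their differences between the groups are given as a description and carry no p-value.

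Control cells carried a scrambled short hairpin RNA (shRNA), and the others carried 1 shRNA against the transcription factor SOX4, labelled shSOX4#1. Their total RNA was hybridised to Illumina HumanHT-12 v4 chips. All cells were grown in the same DMEM medium with fetal bovine serum, and no interferon, virus or other stimulus is named in the labels. Each group had 3 arrays, and the labels do not say whether they came from separate cultures, so every error and p-value covers the spread of these arrays alone, and that spread may be technical. One scrambled array is named as replicate 1, and the other 2 share the heading of replicate 2 and are called 2a and 2b.

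Between 15197 and 16187 probes were detected per array, with a detection p under 0.01. The SOX4 probe had a mean normalized log2 signal of 7.89 ± 0.16 with the scrambled and 5.46 ± 0.27 with the SOX4 hairpin (SD, n = 3), with no overlap. On SOX4 shRNA array 1 it was not above background, so the lower mean lies near the floor. The size of the fall varied with the processing. In log2 it was -2.43 here, -1.15 without background correction and -3.22 with the authors' values. Of the line's markers, VIM, CD44 and AXL were detected on every array and ESR1, PGR and CDH1 on none, while ERBB2, also listed as low in this line, was detected on all 6. Of 20 markers of leucocytes, plasmacytoid dendritic cells, endothelium and fibroblasts, 16 were not above background on any array, including PTPRC, CD3D and all 3 markers of plasmacytoid dendritic cells, a cell type known for high IRF7. The exceptions were CSF1R, detected on all arrays, LUM, on the 3 SOX4 shRNA arrays only, PECAM1, on 1 scrambled and 2 SOX4 shRNA arrays, and COL1A1, on 1 scrambled array. The summed intensity of the 20 markers ran from 2420.02 to 2467 on scrambled and from 2463 to 2486 on SOX4 shRNA arrays, and its part in the results was not tested.

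IRFs share a DNA-binding domain near their amino end that recognises the interferon-stimulated response element (ISRE). IRF3 and IRF7 are phosphorylated by the kinases TBK1 and IKBKE after viral nucleic acid is sensed and then switch on interferon genes. Secreted interferon acts through the kinases JAK1 and TYK2 on STAT proteins, among them STAT2, which joins IRF9 in the complex ISGF3 at ISREs. IRF1 is an activator that interferon gamma and NF-kB induce, IRF2 competes with it at the same sites, and IRF5 acts below Toll-like receptors. IRF7 is itself usually an ISGF3 target, so it commonly moves with other interferon-stimulated genes.

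The promoters of IRF1 and IRF9 are shown because each held a gamma-activated sequence (GAS), the site at which STAT dimers bind, in the 250 bases before the gene's start in RefSeq on GRCh38.p14. Capitals mark the GAS, searched as TTCNNNGAA, which reads the same on both strands. The first lies at chr5:132490774-132491023 on the minus strand and the second at chr14:24161015-24161264 on the plus strand.
IRF1: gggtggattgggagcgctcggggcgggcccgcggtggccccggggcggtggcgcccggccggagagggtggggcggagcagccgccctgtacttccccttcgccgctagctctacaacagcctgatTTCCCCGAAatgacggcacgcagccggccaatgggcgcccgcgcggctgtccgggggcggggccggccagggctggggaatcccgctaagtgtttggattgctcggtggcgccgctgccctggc
IRF9: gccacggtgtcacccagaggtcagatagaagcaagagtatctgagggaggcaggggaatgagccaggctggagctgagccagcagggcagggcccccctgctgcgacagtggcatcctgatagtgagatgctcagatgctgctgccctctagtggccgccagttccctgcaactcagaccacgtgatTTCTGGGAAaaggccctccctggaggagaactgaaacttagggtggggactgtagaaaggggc

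In IRF1 the GAS, TTCCCCGAA, spans bases 124 to 116 before the start, and in IRF9 the GAS, TTCTGGGAA, spans bases 63 to 55. A GAS was present in 6.57% of 35116 RefSeq promoter windows of the same length. The ISRE, searched as GAAA, any 2 bases, then GAAA, on both strands, stood in 3.02% of all windows, and the SOX core motifs AACAAT and AACAAAG, also on both strands, in 3153 and 1580 of the 35116. None of these 3 had a match in the windows of IRF1, IRF5, IRF9 or STAT2, the 4 members found in the promoter table, and the IRF5 and STAT2 windows had no GAS either. IRF2, IRF3 and IRF7 were not matched. A match is a string of letters and does not show that a factor binds there.

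IRF1 was the brightest member and was higher on every SOX4 shRNA array. The deposited intensity of its single probe, ILMN_1708375, was 1200.4, 1276 and 1342 on scrambled arrays 1, 2a and 2b. It was 1883, 1649.7 and 1847 on SOX4 shRNA arrays 1, 2 and 3. The groups did not overlap, and the lowest SOX4 shRNA value lay well above the highest scrambled one. In RNA from whole cultures, a change in the number of cells that express a gene and a change in its RNA per cell cannot be told apart. After background correction and quantile normalization the mean log2 signal was 10.25 ± 0.08 with the scrambled and 10.68 ± 0.11 with the SOX4 hairpin (SD, n = 3). The log2 difference, here and throughout SOX4 shRNA minus scrambled, was 0.44 ± 0.06 (SE), or 1.35-fold higher, with a 95% confidence interval of 0.30 to 0.57. It was smallest, at 0.39, without SOX4 shRNA array 1, the highest of its group, and largest, at 0.50, without SOX4 shRNA array 2, the lowest of its group.

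IRF7, the IRF most tied to amplification of the interferon response, was lower on every SOX4 shRNA array on its brightest probe, ILMN_1798181. This probe read 409, 420.2 and 421 on scrambled arrays 1, 2a and 2b. On SOX4 shRNA arrays 1, 2 and 3 it read 352, 349 and 356. These values did not overlap, and those of each group lay within a few per cent of each other. The mean normalized log2 signal was 8.37 ± 0.06 with the scrambled and 7.93 ± 0.02 with the SOX4 hairpin (SD, n = 3). This made a log2 difference of -0.44 ± 0.08 (SE), which is 1.36-fold lower, with a 95% confidence interval of -0.61 to -0.27.

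The other IRF7 probes did not separate the groups. Probe ILMN_2349061 was dim but detected on all 6 arrays, with intensities of 147, 164 and 148 on scrambled and 138, 154 and 154 on SOX4 shRNA arrays. These ranges overlapped, and the log2 difference was -0.28 ± 0.18 (SE, n = 3 per group), of the same sign as on the bright probe. Probe ILMN_1674646 was not above background on any array, with intensities from 104 to 112, so it has no measured level. The text of the chip table does not say which transcripts each probe covers, so whether the probes read different isoforms was not tested.

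**Figure D1:**
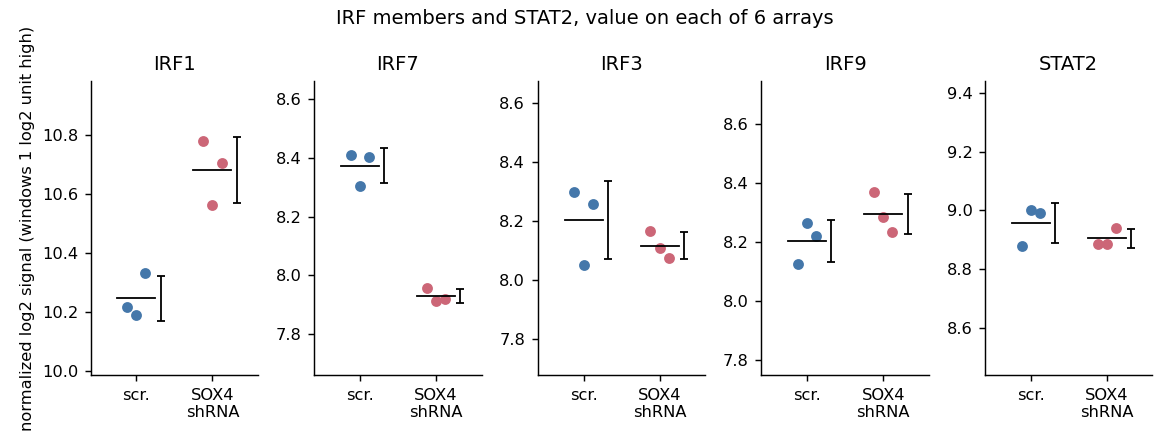
Normalized log2 signal (vertical axes, each window 1 log2 unit high) of the 5 measured members on the 3 scrambled (scr., blue) and 3 SOX4 shRNA (red) arrays, with the group mean as a line and the SD as a bar. Each gene is shown by its brightest probe. On these probes IRF1 lies wholly higher and IRF7 wholly lower with the SOX4 hairpin, while the groups overlap for IRF3, IRF9 and STAT2. A dimmer detected IRF7 probe, not shown, overlapped between the groups.

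IRF3, the constitutively present sensor-driven IRF, differed little between the groups. Its probe, ILMN_1765649, read 385, 368 and 390.4 on scrambled and 390.4, 386 and 386 on SOX4 shRNA arrays, so the SOX4 shRNA values lay inside the scrambled range or level with its top. The mean normalized log2 signal was 8.20 ± 0.13 and 8.12 ± 0.05 (SD, n = 3), with scrambled array 2a the lowest of all 6. The log2 difference was -0.09 ± 0.09 (SE), with a 95% confidence interval of -0.27 to 0.09. It was -0.16 without scrambled array 2a and -0.04 without scrambled array 1. The log2 difference of -0.44 on the brightest IRF7 probe lies outside that interval, but its own interval reaches up to -0.27. IRF7 was chosen with its fall known, so nothing is concluded from setting these genes side by side.

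IRF9, the DNA-binding subunit of ISGF3, gave a different picture before and after normalization. Its probe, ILMN_1745471, read 353, 409.8 and 384 on scrambled and 435, 422 and 420.1 on SOX4 shRNA arrays, so the intensities did not overlap. After normalization the values were 8.13, 8.26 and 8.22 against 8.37, 8.28 and 8.24, and the lowest SOX4 shRNA value fell below the highest scrambled one. The log2 difference was 0.09 ± 0.08 (SE, n = 3 per group), with a 95% confidence interval of -0.08 to 0.26. It stayed between 0.05 and 0.12 whichever array was left out.

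STAT2, the ISGF3 subunit that carries the activation domain, also overlapped between the groups. Probe ILMN_1690921 read 528, 618 and 586 on scrambled and 579, 589 and 619 on SOX4 shRNA arrays. Its mean normalized log2 signal was 8.96 ± 0.07 and 8.90 ± 0.03 (SD, n = 3), a difference of -0.05 ± 0.07 (SE) with a 95% confidence interval of -0.20 to 0.10. Scrambled array 1 had the lowest intensity and the lowest normalized value of the 6.

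IRF2 and IRF5 were not measured. The brighter IRF2 probe, ILMN_1765547, read 124, 127 and 127 on scrambled and 126, 122 and 153 on SOX4 shRNA arrays, and only the last of these, SOX4 shRNA array 3, was above background. The other IRF2 probe, ILMN_2090607, read 120.4, 115 and 103 against 125.0, 124.7 and 136, which do not overlap, but it was above background on no array. Both IRF5 probes stayed at background on all 6 arrays, ILMN_2312606 from 113 to 128 and ILMN_1670576 from 105 to 123. The array medians were 119 to 124. Apart from the 153 on SOX4 shRNA array 3, these readings lie at the level of an undetected probe, and they give no comparison. The IRF2 log2 difference of 0.69 and the IRF5 difference of -0.19 in the authors' deposited table come from signals at or near background.

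**Figure D2:**
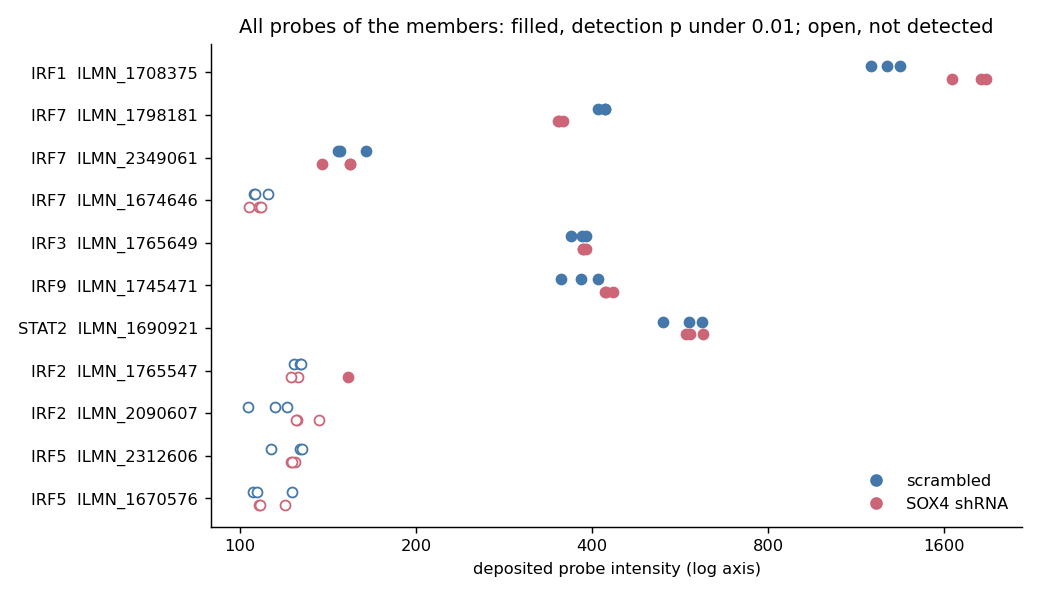
Deposited intensity (horizontal, log axis) of the 11 probes of the 7 genes on each array, scrambled in blue and SOX4 shRNA in red. Filled points had a detection p under 0.01. Of the 11 probes, 6 were detected on all arrays, and IRF2, IRF5 and 1 IRF7 probe sit near the background level.

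Of the 7 genes, 5 passed the filter on dim probes, which asked for detection on at least 3 of the 6 arrays. In limma, fitted over all 12451 genes and unnamed probes with adjustment over all of them, 2 of these 5 passed the threshold of 0.05, IRF1 upward and IRF7 downward. Of all rows tested, 30.6% passed, 15.2% upward and 15.4% downward. The same 2 genes had groups that did not overlap, as had 42% of all rows, 20.2% upward and 21.7% downward. Since this contrast led to the choice of the genes, nothing is read from these counts. Among all rows, 93.3% had a difference below that of IRF1, and 6.34% lay below IRF7. By size alone, IRF1 and IRF7 exceeded 86.8% and 87.2% of the rows, and IRF9, IRF3 and STAT2 exceeded 30.7%, 29.0% and 17.6%.

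**Figure D3:**
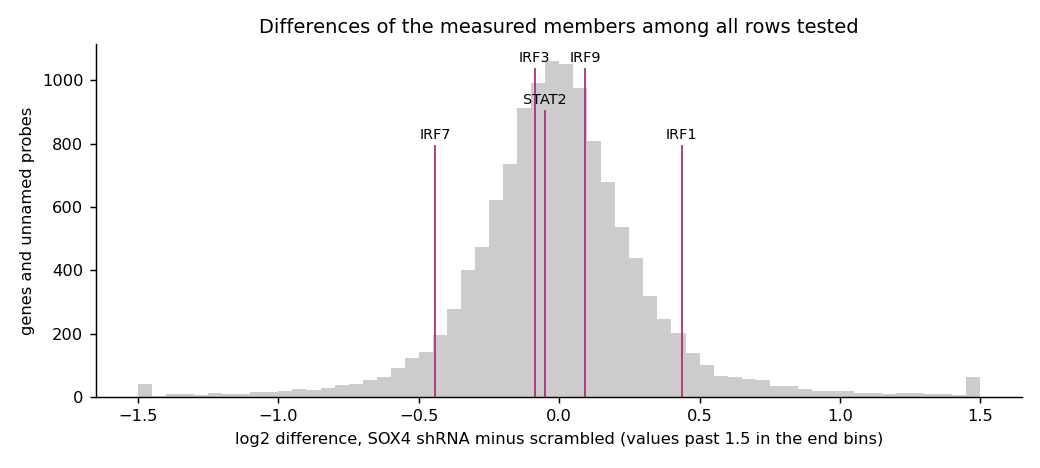
Histogram of the log2 differences of all 12451 rows (horizontal axis, SOX4 shRNA minus scrambled, in bins of 0.05, with values past 1.5 in the end bins), with the 5 measured members as lines. IRF7 at -0.44 and IRF1 at 0.44 stand on the shoulders of the distribution, and IRF3, STAT2 and IRF9 near its centre.

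For IRF7, the size of the difference varied with the processing. With the mean of its kept probes the log2 difference was -0.36, and without background correction it was -0.31, in both cases past the threshold. In the authors' values, where a gene has 1 row, IRF7 stood at 5.03, 5.20 and 5.31 on scrambled replicates 1 to 3 and at 4.83, 4.78 and 4.88 on the SOX4 shRNA replicates. The groups did not overlap there either, but the difference of -0.35 ± 0.18 (SE) did not pass the threshold. The authors' deposited table gives IRF7 group means of 5.03 and 4.46 and a fold of 0.67, a log2 difference of -0.57, although the value table's means are 5.18 and 4.83. What separates these figures from each other was not tested. IRF1 varied less, with 0.44 in both the authors' values and the authors' deposited table, where its fold was 1.36.

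**Figure D4:**
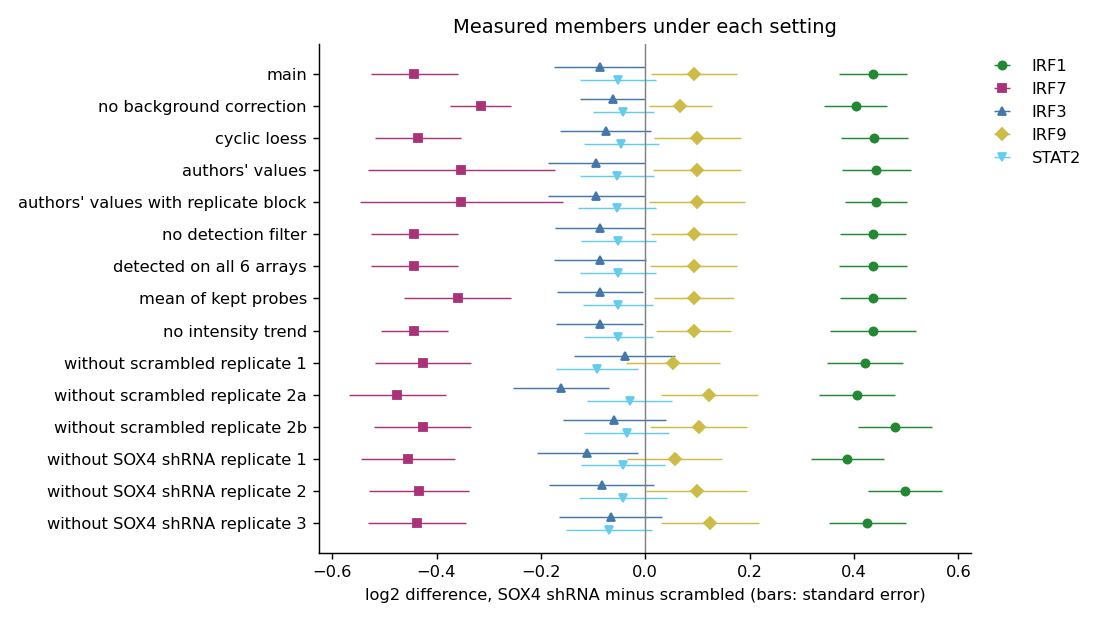
Log2 difference with its standard error (horizontal axis) of the 5 measured members in the main analysis and under 14 other settings (vertical axis). IRF1 stays between 0.39 and 0.50 and IRF7 between -0.48 and -0.31, while IRF3 and STAT2 stay below 0 and IRF9 above it. The errors reach 0 in most settings for STAT2, in some for IRF3 and in few for IRF9.

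Other genes of the family were mostly undetected. IRF4 and IRF8, which act mainly in immune cells, were above background on at most 1 array. C14orf4, the chip's name for the IRF2-binding protein gene IRF2BPL, fell from 9.08 to 8.46 in mean log2 signal, that is by 0.62 ± 0.08 (SE over 3 arrays a group; adjusted p = 2.3e-06, limma). Its relative IRF2BP2 had a log2 difference of 0.03, and IRF2BP1 was detected on too few arrays to be tested.

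The genes that act above IRF3, IRF5 and IRF7 moved in both directions. Of 30 measured sensors, adaptors and kinases, 12 rose and 4 fell, where 15.2% and 15.4% of all rows did. The median log2 difference of these 30 was 0.13, against -0.01 over all rows. The gene lists used here share some genes, so their counts are not independent. IFIH1 and DHX58 are also counted among the ISGF3 targets. SOCS1 stands on the feedback list and on that of IRF1 and GAS targets, and BCL3 on the NF-kB and the cofactor lists. The RNA sensor gene IFIH1 rose by 0.90 ± 0.12, the kinase gene IKBKE by 0.80 ± 0.11, the sensor gene DHX58 (detected on 2 of the 3 scrambled arrays) by 0.75 ± 0.18 and the DNA-sensing adaptor gene TMEM173 (STING1) by 0.72 ± 0.09 in log2 signal (SE, 3 arrays a group). IKBKE read 6.50, 6.37 and 6.49 on scrambled and 7.32, 7.26 and 7.19 on SOX4 shRNA arrays in normalized log2 signal, without overlap. TBK1, the related kinase, fell by 0.25 ± 0.08 on the same scale, though its groups overlapped. The TBK1 call was lost without scrambled array 2a (-0.20), scrambled 2b (-0.20), SOX4 shRNA 1 (-0.25) or SOX4 shRNA 3 (-0.19). It was also lost with the authors' values (-0.26) and without the filter on dim probes.

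The most lowered of these upstream genes was SLC15A4, a lysosomal transporter known to be needed for Toll-like receptor signalling to IRF5 and IRF7, with a log2 difference of -0.51 ± 0.07 (adjusted p = 6.5e-06, limma). TICAM2, an adaptor of TLR4, had -0.47 and AZI2, an adaptor of TBK1, had -0.32, both past the threshold. The call of AZI2 was lost without scrambled array 2a (-0.28), scrambled 2b (-0.28), SOX4 shRNA 1 (-0.30) or SOX4 shRNA 2 (-0.30), with the authors' values (-0.38), and without the filter on dim probes. The number of lowered genes was 2 without scrambled array 2a or SOX4 shRNA array 1, with the authors' values, or without the filter on dim probes.

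Of the interferon genes, 11 symbols were looked up, including IFNB1, IFNA1 and IFNG, and each was above background on at most 1 array, so none of them was measured. Of 6 measured receptor genes 4 rose: IFNGR2 by 0.43 ± 0.06, the shared chain IL10RB by 0.43 ± 0.06, IL28RA by 0.53 ± 0.16 and IFNGR1 by 0.20 ± 0.08 in log2 signal (SE, 3 arrays a group). IFNAR1 and IFNAR2, the receptor of type I interferon, had log2 differences of -0.16 and 0.16, neither past the threshold. The count of 4 was 2 without scrambled array 1 or SOX4 shRNA array 3 and with the authors' values. IL28RA lost its call without those arrays (0.47 and 0.48), and IFNGR1 without any single array except SOX4 shRNA 1 (0.15 to 0.23).

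Of the 18 measured JAK, STAT and feedback genes, 7 rose and 1 fell, with a median log2 difference of 0.06. STAT4, a STAT best known from lymphocytes, had the largest difference: it read 6.14, 6.08 and 5.94 on scrambled and 7.42, 7.34 and 7.46 on SOX4 shRNA arrays, and rose by 1.35 ± 0.12 in log2 signal (SE, 3 arrays a group). STAT5A rose by 0.70 ± 0.15, the feedback inhibitor SOCS1 by 0.45 ± 0.16 and the phosphatase PTPN2 by 0.25 ± 0.09. TYK2, a kinase of the interferon receptors, had a log2 difference of -0.18 ± 0.07 (adjusted p = 0.043, limma), JAK1 had 0.07, and JAK2 was not above background on any array. The SOCS1 call was lost without any 1 of scrambled 1 and 2a and SOX4 shRNA 1 and 3 (0.31 to 0.45), and that of PTPN2 without any 1 of scrambled 2a and 2b and SOX4 shRNA 1 and 3 (0.22 to 0.25). TYK2 lost its call without any single array except SOX4 shRNA 1 (-0.20 to -0.14). With the authors' values SOCS1 (0.63), PTPN2 (0.34) and TYK2 (-0.19) did not pass the threshold either. The number of raised genes was 4 without scrambled array 1, scrambled 2a or SOX4 shRNA 3, 2 without SOX4 shRNA 1, and 2 to 4 with the authors' values, the mean of kept probes, no detection filter or no intensity trend.

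Targets of the members were mostly higher, which was known when the members were chosen. Of 51 measured ISGF3 targets other than the members themselves, 36 rose and 1 fell, with a median log2 difference of 0.36. Of these 36, 2, RSAD2 among them, were above background on no scrambled array and so passed the filter only through the SOX4 shRNA group. ISG20, an antiviral exonuclease, rose by 1.12 ± 0.09 (SE, n = 3 per group). The gene that fell was IFITM1, with -0.28, a call lost without scrambled array 2b (-0.22) and with the authors' values (-0.29). The IRF7 difference had the opposite sign to those of the 36 raised genes. Of 30 measured genes on the list of IRF1 and GAS targets, 23 rose and 2 fell, with a median of 0.37. Of these 23, 4 likewise passed the filter only through the SOX4 shRNA group. The adhesion molecule VCAM1, not above background on any scrambled array, was at least 3.18-fold higher. The protease CASP1, likewise undetected there, was at least 1.58-fold higher, and the GTPase GBP4 rose by 1.20 ± 0.13 (SE, n = 3 per group). IL15 (-0.59) and TAP2 (-0.34) were lower, and neither call held with the authors' values (-0.12 and -0.09) or the mean of kept probes (-0.30 and -0.10). Both list medians were the same with undetected genes set at their bounds. Probes of the HLA and IFITM families can share sequence, so values of single members of these families are uncertain.

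**Figure D5:**
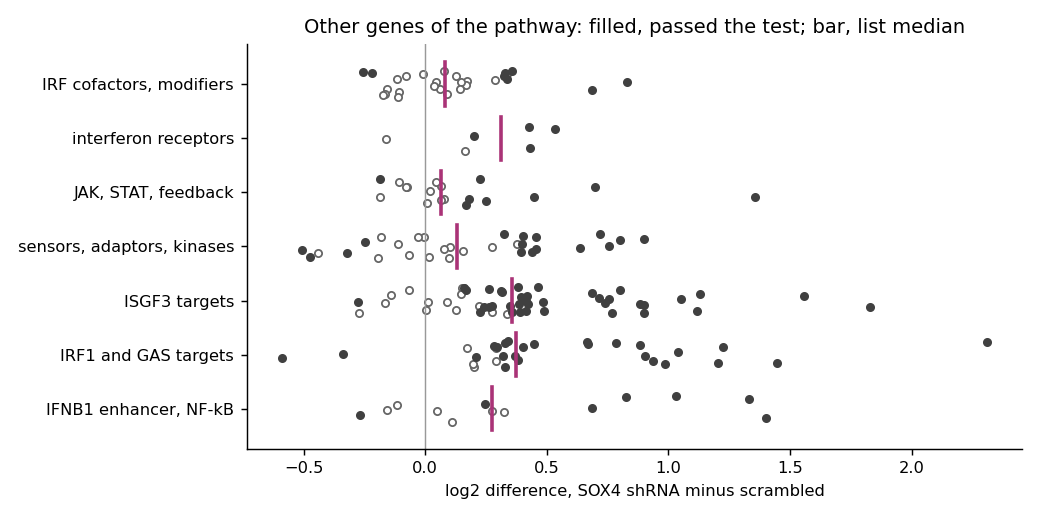
Log2 difference (horizontal axis) of the measured genes of 7 pathway lists (rows), members excluded, filled where the adjusted p was under 0.05 in limma, with the list median as a bar. The medians run from 0.06 for JAK, STAT and feedback genes to 0.37 for IRF1 and GAS targets. Height within a row has no meaning.

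Partners of the IRFs came next. Of 13 measured NF-kB subunits, inhibitors and other factors of the IFNB1 enhancer, 6 rose and 1 fell, with a median log2 difference of 0.28. The inhibitor NFKBIE rose by 1.33 ± 0.09, RELB by 1.03 ± 0.13 and NFKB2 by 0.83 ± 0.12 in log2 signal (SE, 3 arrays a group), and the architectural protein HMGA1 fell by 0.27 ± 0.06, which did not pass the threshold with the authors' values (-0.35). Of 28 measured cofactors and modifiers of the IRFs, 6 rose and 2 fell, with a median of 0.08, and the 28.6% that passed lay near the 30.6% of all rows. The ubiquitin-editing enzyme TNFAIP3, detected on 2 of the 3 scrambled arrays, rose by 0.83 ± 0.18 and the NF-kB cofactor BCL3 by 0.68 ± 0.11. TRIM28, which modifies IRF7 with SUMO, fell by 0.22 ± 0.08. The call of TRIM28 was lost without any single array except SOX4 shRNA 1 (-0.24 to -0.13), and then 1 gene of the list fell. TRIM28 did not pass the threshold with the authors' values either (-0.23). FOXO3, a repressor of IRF7 in macrophages of mice, had a log2 difference of 0.04.

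Genes beside the members were also examined. Beside IRF7 lie PHRF1 and DEAF1, with log2 differences of -0.05 and 0.10, neither past the threshold, although 3 unmeasured coding genes lie between IRF7 and DEAF1. Beside IRF1, SLC22A5 rose by 0.32 ± 0.10 (SE, n = 3 per group), a call lost without SOX4 shRNA array 1 (0.25) and with the authors' values (0.36), and RAD50 had 0.23, which passed the threshold without scrambled array 2a (0.41). BCL2L12, next to IRF3, had 0.15, and RNF31 and REC8, on either side of IRF9, had -0.11 each. TIMELESS, near STAT2, fell by 0.29.

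The genes whose 6 values ran most like those of IRF7 were TWISTNB, FAM136A and COL13A1, each with a Pearson correlation of 0.999 over the 6 arrays. Their log2 differences were -0.36, -1.10 and -1.06. They thus share the split between the groups and the lower normalized value on scrambled array 2a, but not the size of the difference. NELF ran most like IRF1 (0.997), and DKK3 was also among its 3 closest (0.994). SLC37A4 ran most like IRF3 (0.990), PAPD5 most like IRF9 (0.992) and CCDC51 most like STAT2 (0.991). Of the 12069 rows with a symbol, those named only by a LOC or Hs. number were left out of this comparison. With so many rows compared over 6 arrays that fall into 2 groups, such values are a description of these arrays.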

How the data were processed

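Arrays were read in GenomeStudio 2011.1, per the submitters' processing notes. The authors deposited linear probe intensity without background correction or normalization, with a detection p-value beside each value. A deposited value table holds log2 values with 1 row per gene, from RMA run in ArrayStar per the file headers; how probes were combined is not given in the sources used here. A further table deposited by the authors gives group means and a linear fold. Its second mean is headed with another hairpin's name, but a header line names the SOX4 samples, and its log2 differences correlated at 0.996 with those of the value table over 22259 genes, so it was read as the SOX4 comparison.

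The intensities went through neqc (limma 3.58.1, R 4.3.3; background from the detection p-values, offset 16, quantile normalization, log2). Probes detected (p under 0.01) on at least 3 of 6 arrays were kept, 15717 of 47322, and the brightest stood for each symbol. The 2 groups were fitted in limma by lmFit and eBayes, with a trend on intensity, adjusted by Benjamini-Hochberg over all 12451 rows, threshold 0.05. The SEs and confidence intervals of differences are the moderated ones of this fit. They draw on the spread of all rows, so they can be larger or smaller than a gene's own SDs imply. For a gene undetected in 1 whole group, the fold is a bound: the bright group's mean over that of the dim group, where each dim array takes its lowest detected signal or, if higher, the signal of the probe itself. Signal over background and the number of arrays limit the precision. The fit was also run on simulated arrays, where all changes put in were larger than those of IRF1 and IRF7. That run does not show how well changes of the members' size are found.

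The members, gene lists and tests were chosen with earlier results of these data known. Genes were named by rule: all members, SOX4, IRF4, IRF8, JAK1, JAK2 and TYK2, up to 4 raised and 4 lowered non-overlapping genes per list, the nearest measured neighbours, and the 3 genes most correlated with each member; some genes the rule named are not reported here. Others named (TBK1, IFNAR1, IFNAR2, IRF2BP1, IRF2BP2, FOXO3) were chosen after their values were seen. Neighbours and promoter sequences come from RefSeq tables of assembly GRCh38.p14, and chip symbols were matched through its synonyms. The other settings tried left out the background correction, the detection filter, the intensity trend or each array in turn, asked for detection on all 6 arrays, used cyclic loess, took the mean of kept probes or each kept probe, or used the authors' values, with and without the replicate number as a block. Plots were made in Python 3.11.15 with matplotlib 3.10.9.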

Additional observations from a re-analysis of the deposited data

How the results depend on the processing

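IRF1 kept its direction and passed the threshold in all 14 alternative settings, and IRF7 in 12. Every setting refits the same arrays, whose contrast led to the choice of the members, so these counts are only a description. IRF7 had -0.35 with the authors' values, with or without the replicate block, and -0.28 on its dimmer kept probe, none past the threshold. IRF3, IRF9 and STAT2 passed it in no setting and kept their sign in all 14. All of these settings use normalized values. The mean deposited intensity was slightly higher with the SOX4 hairpin for IRF3 (381 to 388) and STAT2 (577 to 596), so their negative sign appears only after normalization. With the authors' values 1 of the members passed, 1113 genes were higher and 1047 lower, and 4 list genes were lower; with the replicate block on those values 1 member passed, 1010 genes were higher and 934 lower, and 55 list genes (20 of them ISGF3 targets) were higher and 5 lower. Deviations of same-numbered arrays correlated between -0.0049 and 0.0058 in the authors' values, and those of differently numbered arrays between -0.012 and 0.0092. No deviation shared by number was thus seen, which does not settle whether such arrays share a culture or day. The intensity table numbers too few arrays for a replicate block. Among the other genes chosen by rule and TBK1, none of the 50 that passed the threshold changed sign, and 31 of them passed it in every setting that tested them. Of those that did not pass, RPS15A had 0.013 with the authors' values or the replicate block and 0.048 with the mean of kept probes, PHRF1 had 0.088 in the former pair, C4orf41 had 0.034 without scrambled 2a, JAK1 -0.052 without scrambled 1, REC8 0.14 without SOX4 shRNA 3 and RRAS 0.021 without SOX4 shRNA 2; leaving out other single arrays, these 4 reached -0.098, 0.16, -0.25 and -0.14. The cause of these changes was not tested. A slide block was not run, as the files name no slides. IRF2, apart from 1 detected reading, and IRF5 lie at background, and quantile normalization would hide a shift of all genes 1 way.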
